A study of Mus musculus with 2 samples.

Results

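The mitochondrial genome codes for 37 genes, and all 37 were listed among the 26082 genes measured in cultured mouse fibro-adipogenic progenitors (FAPs), stromal cells of muscle with the capacity to form fat cells. They were chosen by their symbol, which starts with mt-, and comprised 13 mRNAs, 2 ribosomal RNAs and 22 transfer RNAs (tRNAs). Both groups were primary FAPs of WT genotype in adipogenic induction medium, made with 20% FBS, IBMX at 0.5 mM, dexamethasone at 0.25 μM and insulin at 10 μg/ml. The cells of one group had been transfected with a TGFBR3 overexpressing plasmid and those of the other with the vector. Each group had 1 library, so no difference could be checked against replicates or tested. Differences are described by size, and the printed 95% intervals cover counting error only. The sources used here do not say whether molecular identifiers were used, and reads without them are not independent molecules.

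In the libraries, the total gene-level count was 62321027 with the TGFBR3 plasmid and 83779203 with the vector. Tgfbr3 itself, which checks the labels, had an FPKM (fragments scaled by transcript length and by a library total) of 36.9 and 35.1, with 16372 and 21245 counts. Its level was therefore not set apart by the label, and the samples are called the TGFBR3-labelled library and the vector-labelled library below. The 8 FAP markers examined were detected in both, at 3.48 to 1013 FPKM and at 8.72 to 870 FPKM. The summed FPKM of markers was 0.52 and 0.55 for muscle cells, 1.06 and 0.93 for endothelial cells, 0.46 and 0.39 for macrophages, and 7.33 and 16.2 for adipocytes, with the TGFBR3-labelled library first. Myod1 and Pax7, 2 defining genes of muscle cells, were not analysed here.

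Mitochondrial DNA is transcribed from both strands into long precursors that cover almost the whole circle. The precursors are cut at the tRNAs that lie between the other genes, which releases the mRNAs, ribosomal RNAs and tRNAs. The mRNAs code for subunits of respiratory chain complexes I, III and IV and of the ATP synthase, while the ribosomal RNAs and tRNAs serve the organelle's own protein synthesis. Most mitochondrial mRNAs, and the ribosomal RNAs, carry short 3′ adenine tails, whereas a mature tRNA carries CCA. By the labels, the libraries were made from RNA bound to oligo(dT) in 2 rounds, from inserts of 300 ± 50 bp with paired reads of 150 nt. A tRNA gene spans 59 to 75 bases, so its counts can come from precursor or junction fragments as well as from the tRNA, and these were not told apart here.

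Of the 8 members that were at least 2-fold lower in the TGFBR3-labelled library, 7 are tRNAs that lie in 2 runs on the circle, and the other one is the mRNA mt-Nd3. Among all 21364 genes with over 3 counts in a library, 0.580% were 2-fold lower. The 3 adjacent tRNAs that lie between mt-Nd4 and mt-Nd5, for histidine, serine and leucine, are shown first because they had the lowest ratios. They are given 5′ to 3′ as DNA letters from GENCODE release M21 transcripts on mm10, and the capitals mark the anticodon, which pairs with the codon.
mt-Th, chrM:11546-11612, plus strand: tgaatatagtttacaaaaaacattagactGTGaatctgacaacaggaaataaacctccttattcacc
mt-Ts2, chrM:11613-11671, plus strand: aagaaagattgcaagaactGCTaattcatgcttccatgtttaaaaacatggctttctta
mt-Tl2, chrM:11671-11741, plus strand: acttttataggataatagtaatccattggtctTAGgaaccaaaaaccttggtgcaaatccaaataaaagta

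The other run of low tRNAs lies between mt-Nd2 and mt-Co1, where the 4 genes for alanine, asparagine, cysteine and tyrosine are coded on the opposite strand. Their anticodons are again in capitals.
mt-Ta, chrM:5018-5086, minus strand: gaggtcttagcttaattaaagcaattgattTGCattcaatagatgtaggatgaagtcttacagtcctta
mt-Tn, chrM:5089-5159, minus strand: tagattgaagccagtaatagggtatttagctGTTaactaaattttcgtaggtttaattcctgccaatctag
mt-Tc, chrM:5192-5257, minus strand: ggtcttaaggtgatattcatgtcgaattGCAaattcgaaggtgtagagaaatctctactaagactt
mt-Ty, chrM:5260-5326, minus strand: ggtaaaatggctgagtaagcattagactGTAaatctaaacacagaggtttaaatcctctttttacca

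Mitochondrially encoded RNA as a whole made up slightly less of the TGFBR3-labelled library. The 37 members held 568524 counts there, 0.912% of the library (exact Clopper-Pearson interval 0.910 to 0.915%). In the vector-labelled library they held 872333 counts, 1.04% (1.039 to 1.043%). The first share was 0.876 times the second (0.873 to 0.879). Summed FPKM was 7889 and 9412. In bulk RNA, fewer mitochondria, less RNA per mitochondrion and a change in the other RNAs of a cell all alter this share and cannot be told apart here, and neither can fewer cells of a type and less RNA per cell.

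The classes of RNA had unequal shares. The 13 mRNAs held 530527 and 812595 counts, 93.3% and 93.2% of the mitochondrial counts, and their share of the TGFBR3-labelled library was 0.878 times that of the vector-labelled one (0.875 to 0.881). For the 2 ribosomal RNAs, with 36356 and 56424 counts, this ratio of shares was 0.866 (0.855 to 0.878). For the 22 tRNAs, with only 1641 and 3314 counts, it was 0.666 (0.627 to 0.706). The interval of the tRNAs lay below those of the other classes.

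**Figure D1:**
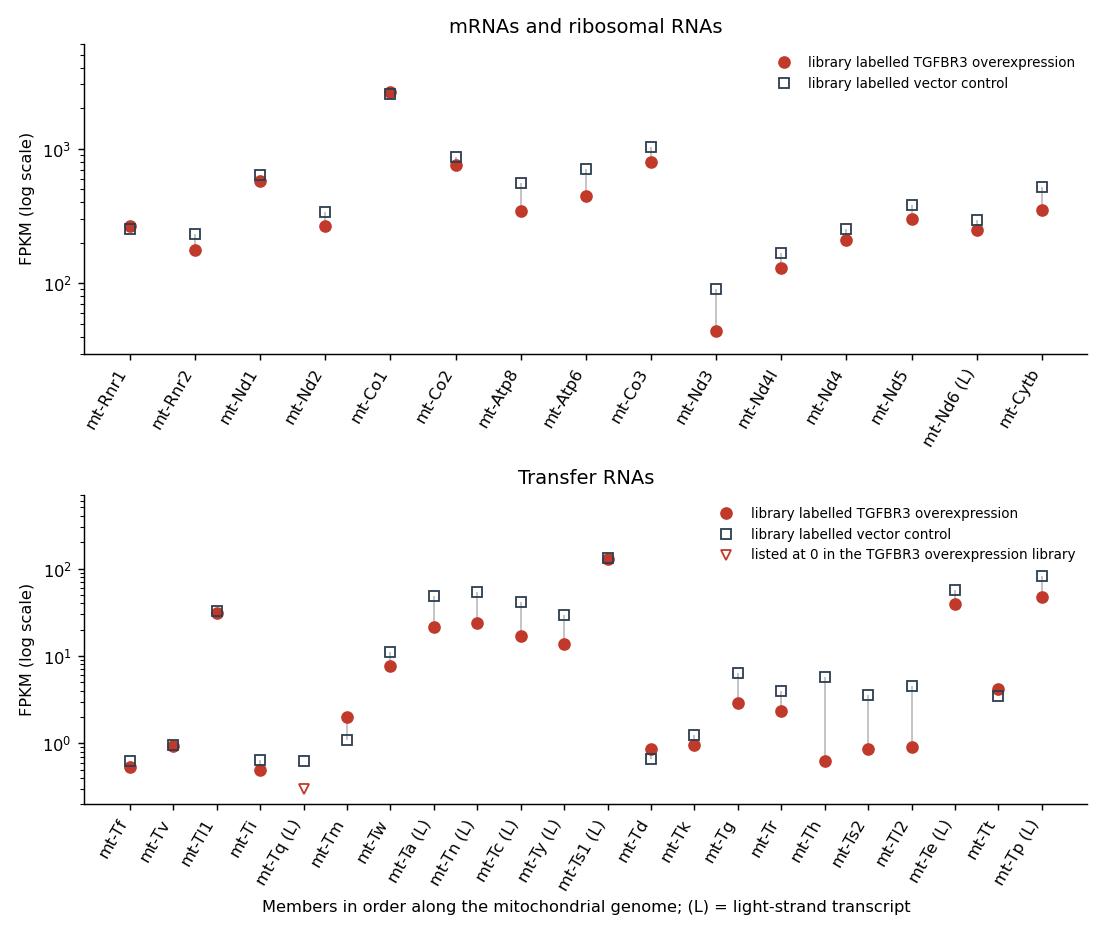
FPKM of the 13 mRNAs and 2 ribosomal RNAs (top) and of the 22 tRNAs (bottom) in both libraries on log axes, ordered along the mitochondrial genome, with (L) for the genes coded on the light strand. mt-Co1 and mt-Rnr1 lie together or slightly higher in the TGFBR3-labelled library (filled circles), the other mRNAs lie lower in it, and mt-Tq is drawn as an open triangle because it is listed at 0 there.

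Per gene, the difference was taken as the log2 ratio of (FPKM + 1), TGFBR3-labelled over vector-labelled, so that negative values mean a lower level in the TGFBR3-labelled library. A ratio of 1 or -1 on this scale is 2-fold. The ratio was below 0 for 32 of the 37 members, against 37.5% of the 10626 genes whose FPKM reached 1 in each library. Counted at 2-fold, 8 members were lower and 0 were higher. Among all 21364 genes with over 3 counts in a library, 0.580% were 2-fold lower and 1.73% were 2-fold higher. Of the 10626 genes whose FPKM reached 1 in each library, 92 were 2-fold lower and 281 were 2-fold higher. The median ratio was -0.37 over the members and 0.06 over those 21364 genes. Ratios also varied with base composition. Over genes whose mean FPKM reached 1, the median ratio ran from 0.42 in the bin of lowest GC content to -0.26 in the bin of highest GC content, and the median GC content was 50.3%. The members have a median GC content of 35.6%, and with that trend removed their median ratio was -0.79. Most members were placed in the bin of lowest GC content, so the same value, 0.42, was taken off each of these.

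**Figure D2:**
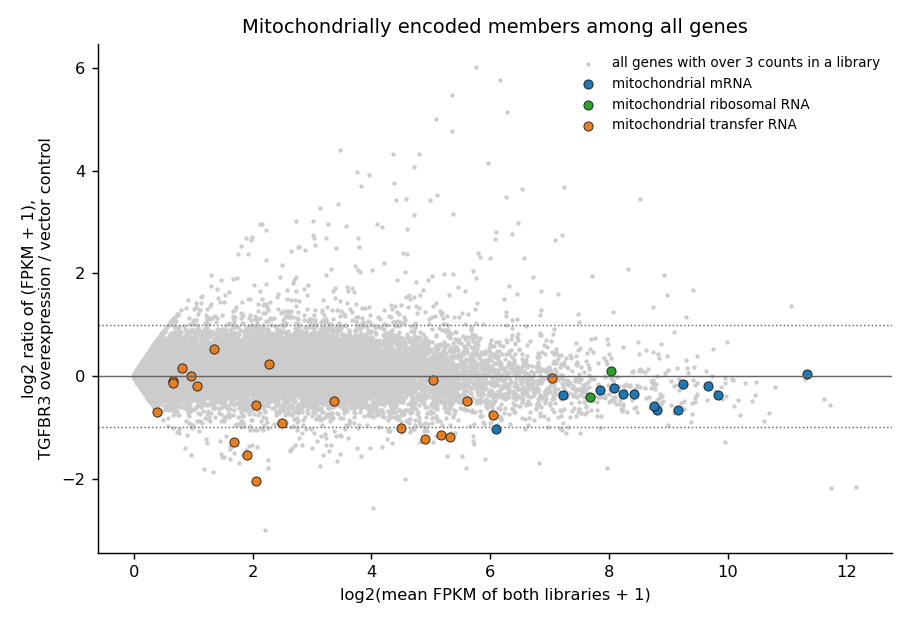
Log2 ratio of (FPKM + 1) against the log2 mean FPKM + 1 of both libraries for 21364 genes (grey), with the mitochondrially encoded members coloured by class and dotted lines at 2-fold. Most members lie below 0, with mt-Th lowest at -2.05, while the spread of all genes widens on both sides.

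The mRNAs of complex IV, cytochrome c oxidase, were the most abundant. mt-Co1, its catalytic core subunit, had 275394 and 366255 counts and an FPKM of 2628 and 2566, a log2 ratio of 0.03 (0.03 to 0.04) that turned to -0.12 when ratios were centred on the median gene. It was the only mRNA above 0 without that centring. mt-Co2, which receives electrons from cytochrome c, had an FPKM of 760 and 869 and a log2 ratio of -0.19 (-0.21 to -0.17). mt-Co3, the third of the core subunits, had an FPKM of 801 and 1034 and a log2 ratio of -0.37 (-0.39 to -0.35).

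The make-up of the mitochondrial RNA differed accordingly. mt-Co1 alone held 48.4% (48.3 to 48.6%) of the mitochondrial counts in the TGFBR3-labelled library and 42.0% (41.9 to 42.1%) in the vector-labelled one. With the counts of the nuclear copies described below added, it held 298051 of 704860 and 400190 of 1104778 counts. That is a smaller share in each library, so the level of this share depends on where those reads are counted. Per length, mt-Co1 stood at 3.46 times mt-Co2 in the former (3.42 to 3.50) and 2.95 times in the latter (2.93 to 2.98). With the counts of the copies added, these values were 1.87 and 1.61. Ratios of this kind are taken within a library and do not depend on how the libraries were scaled to each other.

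The mRNAs of the ATP synthase, whose 2 mitochondrially encoded subunits sit in its membrane part, were lower in the TGFBR3-labelled library. mt-Atp6, the subunit that forms the path of the protons, had 20500 and 44308 counts and an FPKM of 444 and 704, with a log2 ratio of -0.67 (-0.69 to -0.64). mt-Atp8, an accessory membrane subunit, had 4802 and 10413 counts and an FPKM of 347 and 552, with the same log2 ratio of -0.67 (-0.72 to -0.62). The genes overlap by 43 bases and are carried on a shared mRNA. Their ratio to each other, mt-Atp8 over mt-Atp6 per length, was 0.782 (0.758 to 0.807) and 0.785 (0.768 to 0.801), with overlapping intervals. With the copy of mt-Atp6 added it was 0.377 and 0.382. No copy of mt-Atp8 was among the listed genes, so counts were added to mt-Atp6 only. These values therefore do not compare the 2 genes on equal terms. Relative to mt-Co2, mt-Atp6 stood at 0.584 (0.574 to 0.594) in the TGFBR3-labelled library and 0.810 (0.80 to 0.82) in the vector-labelled one.

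mt-Cytb, the cytochrome b of complex III and its only mitochondrially encoded subunit, had 26936 and 54729 counts. Its FPKM was 347 and 518, and its log2 ratio was -0.58 (-0.60 to -0.55). In the TGFBR3-labelled library mt-Cytb and mt-Atp8 stood at the same level per length.

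All 7 mRNAs of complex I, the NADH dehydrogenase, had a log2 ratio below 0, with a median of -0.34. The difference was smallest for mt-Nd1, which helps to form the quinone site, with an FPKM of 574 and 640 and a log2 ratio of -0.16 (-0.18 to -0.14). The proton-pumping membrane subunits followed. mt-Nd4 had an FPKM of 209 and 251 and a log2 ratio of -0.27 (-0.29 to -0.24), mt-Nd5 301 and 382 FPKM and -0.34 (-0.36 to -0.32), and mt-Nd2 264 and 339 FPKM and -0.36 (-0.39 to -0.33). mt-Nd4l, a small membrane subunit whose gene overlaps mt-Nd4 by 7 bases, had an FPKM of 130 and 167 and a log2 ratio of -0.36 (-0.43 to -0.29).

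mt-Nd3, a small subunit at the joint between the membrane arm and the peripheral arm, was the least abundant mRNA per length in both libraries and the one with the lowest ratio. It had 1039 counts in the TGFBR3-labelled library and 2933 in the vector-labelled one. Its FPKM was 44.0 and 91.2, and its log2 ratio was -1.04 (-1.14 to -0.93). It was the 1 mRNA of 13 past 2-fold, and its interval held the threshold. Relative to mt-Co3, from which it is separated by mt-Tg, it stood at 0.0550 (0.0516 to 0.0585) in the TGFBR3-labelled library and 0.0882 (0.0850 to 0.0915) in the vector-labelled library.

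mt-Nd6 is the single mRNA coded on the light strand. It had 8725 and 14027 counts and an FPKM of 248 and 293, with a log2 ratio of -0.24 (-0.28 to -0.20). The annotated ends of mt-Nd6 and mt-Nd5 overlap by 14 bases on opposite strands. Per length mt-Nd6 stood at 0.822 (0.803 to 0.842) of mt-Nd5 in the TGFBR3-labelled library and at 0.765 (0.751 to 0.779) in the vector-labelled library, so the light-strand mRNA differed less between the libraries than its heavy-strand neighbour. The labels describe strand marking with dUTP and the paper names another stranded kit, so the library preparation is not settled. The strand setting of the counting is not given in the sources used here, and without it reads of a gene and its antisense partner cannot be told apart.

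By deposited level per length, the order mt-Co1, mt-Co3, mt-Co2 at the top and mt-Nd5, mt-Nd2, mt-Nd6, mt-Nd4, mt-Nd4l, mt-Nd3 at the bottom was shared by both libraries. The middle differed, since mt-Nd1 stood above mt-Atp6 in the TGFBR3-labelled library and below it in the vector-labelled one. With the counts of the nuclear copies described below added, the order at the bottom was not shared. mt-Nd4 then stood at 308 FPKM against 301 for mt-Nd5 in the TGFBR3-labelled library, and at 365 against 382 in the vector-labelled one. mt-Atp6 then stood above mt-Nd1 in both. The median log2 ratio of the 13 mRNAs was -0.36, and it was -0.51 after centring on the median gene, where all 13 were below 0.

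Some mitochondrial mRNAs depend on their tail in a way that shows in the annotated sequences. In 3 mRNAs, mt-Co3, mt-Nd4 and mt-Cytb, the coding sequence ends 1 base after its last complete codon, and the added adenines complete the stop codon. The last 30 bases of each are shown for that reason, with the lone T in capitals.
mt-Co3, chrM:9361-9390, plus strand: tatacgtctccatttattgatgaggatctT
mt-Nd4, chrM:11515-11544, plus strand: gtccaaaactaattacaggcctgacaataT
mt-Cytb, chrM:15259-15288, plus strand: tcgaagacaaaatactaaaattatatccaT

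Their log2 ratios were -0.37, -0.27 and -0.58, which lies within the range of the other mRNAs, -1.04 to 0.03.

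The ribosomal RNAs, which are transcribed next to each other, had unlike ratios. mt-Rnr1, the 12S RNA of the small mitochondrial ribosomal subunit, had 17390 and 22255 counts and an FPKM of 268 and 252. Its log2 ratio was 0.09 (0.06 to 0.12), and it was -0.06 after centring on the median gene. mt-Rnr2, the 16S RNA of the large subunit, had 18966 and 34169 counts and an FPKM of 177 and 234, with a log2 ratio of -0.40 (-0.43 to -0.38). The level of 12S over 16S RNA per length was 1.52 (1.49 to 1.55) in the TGFBR3-labelled library and 1.08 (1.06 to 1.10) in the vector-labelled one. This contrast does not depend on the scaling of the libraries.

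Nuclear ribosomal RNA differed more than either. Genes annotated as nuclear ribosomal RNA held 0.251% of the counts in the TGFBR3-labelled library and 1.15% in the vector-labelled library. Of these, CT010467 held 156067 and 961935 counts, with an FPKM of 1244 and 5631 and a log2 ratio of -2.18. Such RNA has no poly(A) tail, and its share can vary with the carry-over of untailed RNA through oligo(dT) selection. Carry-over was not measured here. Whether it plays a part in this difference, or in the ratios of mitochondrial ribosomal RNAs and tRNAs, was not tested. Other nuclear genes of short or untailed RNAs had unlike ratios of shares. The ratio was 0.245 (0.239 to 0.251) for genes annotated as miRNA, with 7783 and 42647 counts, and 0.148 (0.0788 to 0.258) for ribozymes, with 14 and 127 counts. It was 0.552 (0.494 to 0.616) for misc_RNA, with 461 and 1123 counts, and 1.48 (1.33 to 1.66) for snoRNA, with 687 and 622 counts. For snRNA, with 147 and 159 counts, it was 1.24 with an interval that held 1 (0.986 to 1.57).

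**Figure D3:**
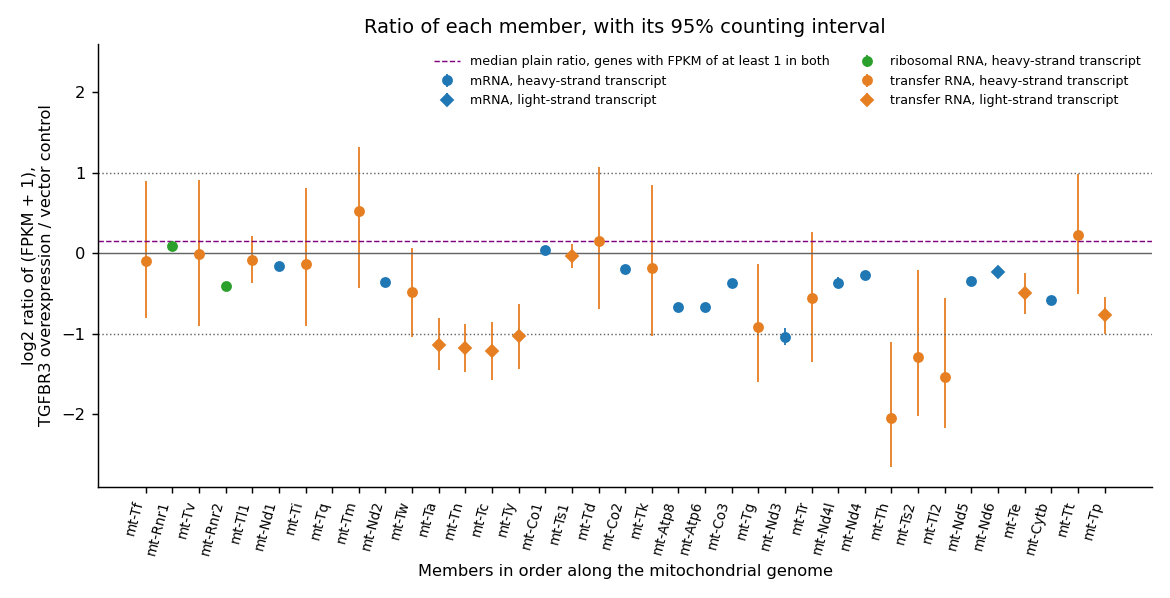
Log2 ratio of (FPKM + 1) of each member in order along the mitochondrial genome, with 95% counting intervals (hidden by the symbol where narrow). Circles are genes coded on the heavy strand and diamonds on the light strand, dotted lines mark 2-fold, and mt-Tq, listed at 0 in the TGFBR3-labelled library, is left out. The 8 members past 2-fold lower are the adjacent mt-Th, mt-Ts2 and mt-Tl2, the run of mt-Ta, mt-Tn, mt-Tc and mt-Ty, and mt-Nd3, whereas several tRNAs with few counts have intervals that reach across 0.

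The tRNAs covered the widest range of levels and ratios. Their FPKM ran from 0 to 129 in the TGFBR3-labelled library and from 0.63 to 132 in the vector-labelled one. The median log2 ratio was -0.53, with 19 of 22 below 0 and 7 past 2-fold lower. Of the 21364 genes with over 3 counts in a library, 0.580% were 2-fold lower. On CPM the 1 member past 2-fold was the mRNA mt-Nd3, so no tRNA was. The tRNA median was -0.18 on CPM (counts scaled to a common total) and -0.95 once ratios were freed of the GC trend. With mt-Tq set to the floor of 3 counts the median was -0.49. Counting error was large for this class: 13 of the 22 had under 50 counts in both libraries, and the interval of the ratio held 0 for 12.

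mt-Th, the histidine tRNA, had 3 counts in the TGFBR3-labelled library and 36 in the vector-labelled one. Its FPKM was 0.62 and 5.69, a log2 ratio of -2.05 (-2.66 to -1.10). Without the added 1 it was 9.18-fold lower, with a counting interval of 2.78 to 44.7. Its 3 counts are at the floor, so this fold is a bound and not a measured value. By the interval of (FPKM + 1), mt-Th was the 1 member wholly past 2-fold, and on CPM its log2 ratio was -0.45. mt-Tl2, the CUN-reading leucine tRNA, had 5 and 30 counts and a log2 ratio of -1.54 (-2.17 to -0.56). mt-Ts2, the AGY-reading serine tRNA, had 4 and 20 counts and a log2 ratio of -1.29 (-2.02 to -0.21). Together these neighbours held 12 counts against 86. They are flanked by mt-Nd4 and mt-Nd5 on the same strand, whose ratios were -0.27 and -0.34.

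mt-Tc, mt-Tn, mt-Ta and mt-Ty form a run that is interrupted by a gap of 32 bases between mt-Tn and mt-Tc. mt-Tc, for cysteine, had 77 and 250 counts and a log2 ratio of -1.22 (-1.57 to -0.85). mt-Tn, for asparagine, had 114 and 358 counts and a log2 ratio of -1.18 (-1.48 to -0.87). mt-Ta, for alanine, had 101 and 308 counts and a log2 ratio of -1.14 (-1.45 to -0.81), and mt-Ty, for tyrosine, had 63 and 181 counts and a log2 ratio of -1.02 (-1.43 to -0.63). Together they held 355 counts against 1097. Each interval held the threshold of -1 and none held 0.

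Both runs were picked after their values were seen and were given no test.

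The other 4 light-strand tRNAs were not past 2-fold by their ratios. The interval of mt-Tp overlapped those of the run above, and the intervals of mt-Te and mt-Tq overlapped that of mt-Ty. mt-Ts1, the UCN-reading serine tRNA, had the most counts of any tRNA, 603 and 839, with an FPKM of 129 and 132 and a log2 ratio of -0.03 (-0.18 to 0.12). It overlaps the 3′ end of mt-Co1 by 3 bases on the opposite strand, and relative to mt-Co1 it stood at 0.0490 (0.0452 to 0.0531) and 0.0513 (0.0479 to 0.0549) per length. mt-Te, for glutamate, had 185 and 359 counts and a log2 ratio of -0.50 (-0.76 to -0.25). mt-Tp, for proline, had 217 and 507 counts and a log2 ratio of -0.76 (-0.998 to -0.538). mt-Tq, for glutamine, was listed at 0 in the TGFBR3-labelled library and had 5 counts and an FPKM of 0.63 in the vector-labelled one. The floor of 3 counts stands for an FPKM of 0.62 in the former, so no difference was detectable for it.

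Most of the tRNA counts were listed at genes coded on the light strand, 1360 of 1641 and 2807 of 3314. mt-Ts1 alone held 603 and 839 of these. As the strand setting of the counting is not given, these counts may include reads of the other strand. All 9 light-strand members, mt-Nd6 and 8 tRNAs, had a log2 ratio below 0, with a median of -0.76 and 4 past 2-fold. Of the 28 heavy-strand members, 23 were below 0, with a median of -0.35 and 4 past 2-fold. The share 2-fold lower was 0.580% among all 21364 genes with over 3 counts in a library. In summed counts, the ratio of shares was 0.651 (0.610 to 0.695) for light-strand tRNAs and 0.745 (0.642 to 0.864) for heavy-strand tRNAs, with overlapping intervals. A difference between light-strand and heavy-strand tRNA genes in summed counts was therefore not detectable at this depth.

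On the heavy strand, mt-Tl1, the leucine tRNA next to mt-Rnr2, was the one with the most counts, 158 and 228, and a log2 ratio of -0.08 (-0.37 to 0.21). mt-Tw, for tryptophan, had 35 and 69 counts and a log2 ratio of -0.48 (-1.04 to 0.07). mt-Tg, for glycine, lies between mt-Co3 and mt-Nd3. It had 14 and 40 counts and a log2 ratio of -0.91 (-1.59 to -0.13), while mt-Tr, for arginine, on the other side of mt-Nd3, had 11 and 25 counts and a ratio of -0.56 (-1.35 to 0.26).

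The 3 tRNAs above 0 were mt-Tm, for methionine, with 10 and 8 counts and a log2 ratio of 0.52 (-0.44 to 1.32), mt-Tt, for threonine, with 20 and 22 counts and 0.22 (-0.50 to 0.99), and mt-Td, for aspartate, with 5 and 5 counts and 0.16 (-0.70 to 1.07). All of these intervals held 0. The remaining 4, mt-Tf, mt-Tv, mt-Ti and mt-Tk, had 3 to 5 counts in the TGFBR3-labelled library and 4 to 8 in the vector-labelled one. No difference was detectable for them at this depth.

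Several members share nearly all of their sequence with copies in the nuclear genome. On chromosome 1, between 24611535 and 24616197 on the minus strand, 7 unprocessed pseudogenes repeat the stretch from mt-Co1 to mt-Nd4. The copies Gm28437 (of mt-Co3), Gm10925 (of mt-Atp6), Gm28661 (of mt-Co2), Gm10222 (of mt-Nd4l) and Gm28439 (of the first 876 bases of mt-Nd4) had 0 mismatches over their length. Gm28438 differed from mt-Nd3 by 1 base in 345, T3C, counted from the first base of mt-Nd3 with its base given first. The first 80 bases of this pair are shown to make plain how little a read has to tell them apart, with the differing base in capitals.
mt-Nd3, chrM:9459-9538, plus strand: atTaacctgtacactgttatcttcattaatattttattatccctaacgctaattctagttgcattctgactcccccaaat
Gm28438, chr1:24613040-24613119, minus strand: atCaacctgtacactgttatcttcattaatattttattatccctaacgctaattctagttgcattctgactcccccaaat

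The deposited counts were close to evenly divided between such pairs. mt-Co3 had 42583 and 74892 counts, and Gm28437 had 43515 and 75202. mt-Nd3 had 1039 and 2933 counts, and Gm28438 had 999 and 2825. Of the counts of a pair, the copy held 49.9% for mt-Co2, 50.5% for mt-Co3, 51.8% for mt-Atp6, 49.0% for mt-Nd3 and 50.9% for mt-Nd4l in the TGFBR3-labelled library. It held 32.3% for mt-Nd4 and 7.60% for mt-Co1, whose copies are shorter than the gene. The copies summed to 136336 and 232445 counts. How many of these reads came from either place cannot be told from the deposited values.

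Adding the copies' counts raised the levels of the affected mRNAs but hardly moved their ratios, since the division was close to the same in both libraries. With the copy's counts added, mt-Co3 stood at 1619 and 2072 FPKM, 2.02 and 2.00 times its deposited level, and its log2 ratio was -0.36. mt-Atp6 stood at 920 and 1445 FPKM, with a ratio of -0.65, which puts it above mt-Nd1 in both libraries. mt-Nd3 stood at 86.3 and 179 FPKM, with a ratio of -1.04. mt-Co1 stood at 2844 and 2803 FPKM, with a ratio of 0.02. The share of all members was then 1.13% of the TGFBR3-labelled and 1.32% of the vector-labelled library. The order of levels between mRNAs with and without a listed copy thus depends on where these reads are counted. Copies were sought among annotated genes only, by a rule that a tRNA is too short to meet. The stretches between the pseudogenes, where copies of mt-Atp8 and of tRNAs from this part of the circle could lie, were not searched. Whether reads of those members were placed there was not tested.

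**Figure D4:**
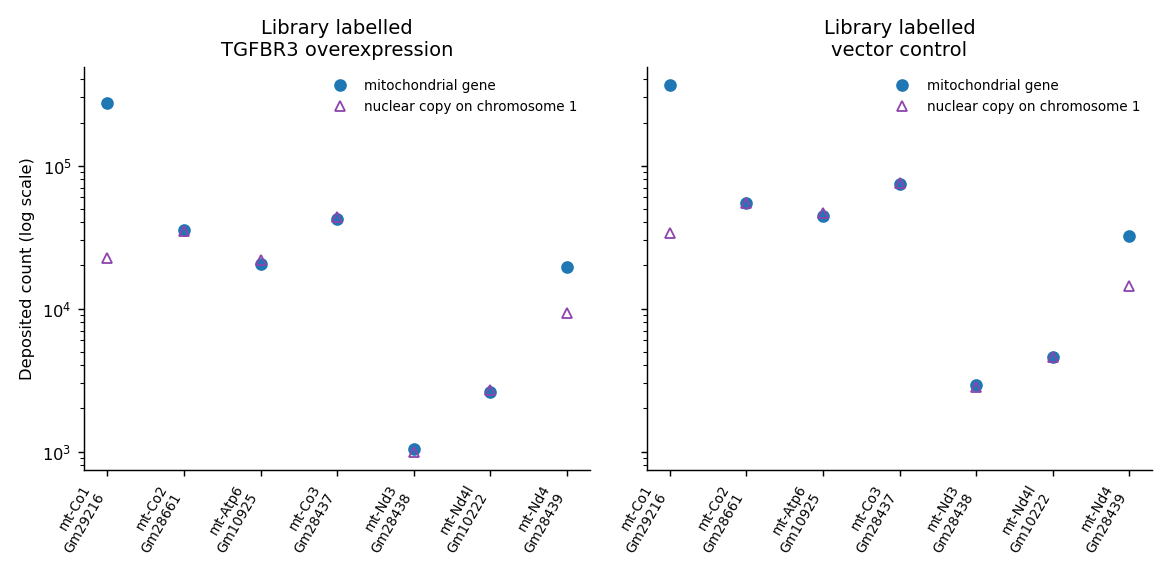
Deposited counts of 7 mitochondrial mRNAs and of their copies on chromosome 1 in each library, on a log axis. Member and copy coincide for mt-Co2, mt-Atp6, mt-Co3, mt-Nd3 and mt-Nd4l, while the copies of mt-Co1 and mt-Nd4, which cover only part of the gene, lie lower.

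The machinery that makes and handles these RNAs is coded in the nucleus. Of 60 genes of mitochondrial transcription, RNA processing and RNA stability, 49 (81.7%) had a log2 ratio above 0 and 11 below, against 62.3% above 0 among the 10626 genes whose FPKM reached 1 in each library. The median was 0.26, against 0.13 over those genes, and it was 0.14 after centring. At 2-fold, 3 of the 60 were higher, against 1.73% of all genes, and 0 were lower, against 0.580%. Of those 10626 genes, 281 were 2-fold higher and 92 were 2-fold lower.

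Among the genes of transcription, Polrmt, the mitochondrial RNA polymerase, had an FPKM of 7.09 and 6.61 and a log2 ratio of 0.09, which was -0.05 after centring. Tfam, which packages mitochondrial DNA and starts transcription, had an FPKM of 5.30 and 3.83 and a ratio of 0.38. Tefm, the elongation factor, stood at 6.27 and 2.95 FPKM with a ratio of 0.88. None of the 16 genes of this group was past 2-fold.

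Among the genes of RNA processing and modification, Trit1, which modifies a base beside the anticodon of tRNAs, had an FPKM of 9.16 and 3.48 and a log2 ratio of 1.18. Mrm3, a methyltransferase of the 16S ribosomal RNA, had an FPKM of 6.95 and 2.89 and a ratio of 1.03. They were the 2 of 25 past 2-fold, and after centring Mrm3 was at 0.90.

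Among the genes of RNA stability and decay, Pnpt1 stood out. It codes for polynucleotide phosphorylase, which degrades mitochondrial RNA together with the helicase Supv3l1, and had 3573 counts in the TGFBR3-labelled library and 1260 in the vector-labelled one. Its FPKM was 15.0 and 3.87, a log2 ratio of 1.71 (1.64 to 1.79), and it was the 1 of 19 past 2-fold. Supv3l1 had an FPKM of 6.91 and 6.86 and a ratio of 0.01, which was -0.12 after centring. Lrpprc, which stabilises mitochondrial mRNAs, had an FPKM of 4.87 and 3.11 and a ratio of 0.51. Its partner Slirp had an FPKM of 3.25 and 3.18 and a ratio of 0.02, which was -0.09 after centring. Whether any of these genes bears on the levels of the mitochondrially encoded RNAs was not tested.

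The partners of the encoded proteins divided by group. Of 85 nuclear genes of the respiratory chain, 68 had a log2 ratio below 0, against 37.5% of the 10626 genes above. Their median was -0.23, next to -0.36 for the 13 mitochondrially encoded mRNAs. The trend over GC content was not removed for this list, and whether it plays a part in this median was not tested. Cox6b2, a testis isoform of a complex IV subunit, and Ndufa4l2, a relative of a complex IV subunit that is induced in hypoxia, were the 2 past 2-fold lower, at -1.69 and -1.02. They make up 2.35% of this list, against 0.580% of all genes and 92 of those 10626 genes. Of 78 genes of mitochondrial ribosomal proteins, 47 were above 0 and 31 below, with a median of 0.12 that was -0.01 after centring. The share above 0, 60.3%, was close to the 62.3% of those 10626 genes, and the share 2-fold higher, 1.28%, to the 1.73% of all genes. Mrpl1 was the 1 past 2-fold higher, with an FPKM of 4.62 and 1.59 and a ratio of 1.12, which was 0.99 after centring.

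Of 13 translation factors, 12 were analysed here, and they had a median log2 ratio of 0.23 with none past 2-fold. Mtrf1, a release factor, stood at 0.64, Mtif2, an initiation factor, at 0.62 and Gfm2, which helps to recycle ribosomes, at 0.40. Of 10 mitochondrial chaperones and proteases, 9 were above 0, against 62.3% of the 10626 genes, with a median of 0.43 and none past 2-fold. Hspd1 and Hspa9, the main chaperones of the matrix, were at 0.71 and 0.70, and Yme1l1, a protease of the inner membrane, was at 0.66. The 8 regulators of mitochondrial biogenesis had a median of 0.11.

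**Figure D5:**
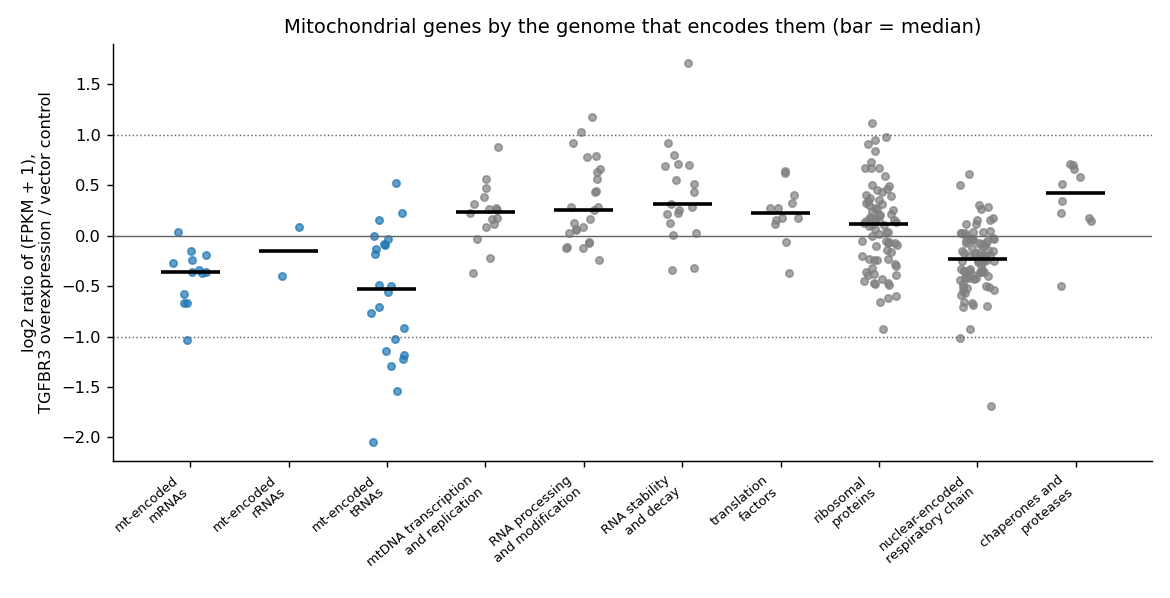
Log2 ratio of (FPKM + 1) of the mitochondrially encoded RNAs by class (blue) and of nuclear genes of mitochondrial function by list (grey), 1 point per gene, with bars at the medians. The mitochondrially encoded mRNAs (median -0.36) and the nuclear genes of the respiratory chain (-0.23) lie mostly below 0, whereas the genes of RNA stability and decay (0.31) lie mostly above it, with Pnpt1 highest.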

How the data were processed

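Each of 2 groups had 1 library. The authors deposited an estimated count and an FPKM per gene. Trimming, mapping to mm10 and counting were theirs. The paper names the KC-Digital Stranded kit, STAR and FeatureCounts, whereas the labels describe a dUTP protocol and the submitters' processing notes list cutadapt 1.9, HISAT2 2.2.1, StringTie 2.1.6, DESeq2 and edgeR. The deposited counts looked like fractional estimates rounded up: over 746 and 510 low genes with 1 transcript, count minus the estimate implied by the FPKM had a median of 0.85 and 0.92 and never fell below -0.05. Counts of a few reads may thus be up to 1 too high.

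Here the log2 ratio of (FPKM + 1) was computed for each gene, with a floor of 3 counts. Intervals rest on the exact Clopper-Pearson interval of how a gene's counts split between the libraries. For centring, the FPKM of the TGFBR3-labelled library was scaled down by the median log2 of the plain FPKM ratio, 0.15, of 10626 genes whose FPKM reached 1 in each library, and 1 was then added, so that low genes shift less. Copies were sought as genes sharing at least 100 words of 31 bases. Coordinates are from GENCODE M21, which lacks 70 of the 26082 genes. Python 3.11.15, numpy 2.4.6, pandas 2.3.3 and scipy 1.17.1 were used. The plain ratio of count shares and its interval were tested on simulated data, in genes with many counts. That test did not cover the (FPKM + 1) measure or genes with few counts.

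The members and lists were chosen with earlier results of these data known. Of each list, the genes past 2-fold (at most 4) could be named, otherwise up to 3 with the largest absolute ratios. Polrmt, Tfam, Lrpprc, Slirp and Pnpt1 could also be named, and of the copies those with the highest counts (5). Gm10222 and Gm28438, outside that rule, were named after their values were seen, as were Supv3l1, CT010467 and the markers not analysed. Alternatives were other pseudocounts, scalings, units, filters and thresholds. No test was run, since 1 library per group allows none.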

Additional observations from a re-analysis of the deposited data

How the results depend on the processing

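No direction of a class median reversed under any alternative, and no member was 2-fold higher under any. No paired analysis was possible because each group had 1 library, and no replicate could be left out. Centring on the median gene gave a median log2 ratio of -0.51 for mRNAs, -0.31 for ribosomal RNAs and 0.14 for nuclear genes of mitochondrial RNA metabolism. Removing the trend over GC content, chosen after seeing the data like the addition of nuclear copies and the floor for mt-Tq, gave -0.78, -0.58, 0.11 and, for light-strand members, -1.13, which was -1.07 with a pseudocount of 0.1. The tRNA median was -0.18 with CPM (counts scaled to a common total) and -0.95 without the GC trend. The 8 members past 2-fold became 1 with CPM, where the added 1 outweighs tRNAs with few counts, 5 among members whose FPKM reached 1 in each library, and 13 with a 1.5-fold threshold or without the GC trend. The share of mitochondrial RNA was 2.76% and 3.13% of summed FPKM, 0.851% and 0.970% of counts for mRNAs alone, 1.13% and 1.32% with the nuclear copies, and, in the vector-labelled library, 1.05% without nuclear ribosomal RNA. Depth limited the 13 tRNAs with under 50 counts.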
